A study of Mus musculus with 10 samples.

Results

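The 39 Hox genes of the mouse were followed in the adult Achilles tendon, a hindlimb tissue, with and without deletion of the tendon homeobox gene Mkx. They were taken as every gene of the count table whose symbol is Hox, a cluster letter from a to d, and a number, which gave 39 of 32285 genes and left out their antisense RNAs. Of the 39 genes, 27 had enough counts to be tested, among 16017 genes tested in all. Total RNA of the tendon was sequenced by RamDA-seq, a method for small amounts of RNA that does not select for poly(A) tails, in 10 libraries of 3 genotypes. The knockout genotype, Mkx-CreER/flox (n = 3), carried CreER, a Cre recombinase that tamoxifen activates, expressed from the Mkx locus, together with a floxed Mkx allele. One control genotype carried the CreER allele alone (Mkx-CreER/+, n = 3), and the other carried a floxed allele alone (Mkx flox/+, n = 4). All 3 genotypes were given tamoxifen (20 mg/kg) when 6 weeks old, and tendons were collected 4 weeks after that. Cre is active only where the Mkx locus is, so cells of the dissected tissue that do not use Mkx keep the floxed allele. No source used here says if CreER knocked into the locus impairs Mkx, and the series text writes the floxed control without the plus sign, so its number of floxed copies is not settled. Libraries are named by their column numbers, which are 1, 4 and 5 for Mkx-CreER/flox, 1, 2 and 4 for Mkx-CreER/+ and 1 to 4 for Mkx flox/+. Values per library follow that order.

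Hox genes encode homeodomain transcription factors and lie in 4 clusters on different chromosomes. Their order within a cluster, numbered by paralog group, matches the order in which they are used along the body axis. In the limb bud, genes of groups 9 to 13 of the Hoxa and Hoxd clusters mark segments from shoulder or hip to digits, with group 11 needed for the lower arm and lower leg and group 13 for hand and foot. The posterior Hoxc genes are used in the hindlimb and little in the forelimb. Connective tissue cells of adult limbs are known to keep part of this code, and group 11 genes have been followed in the fibroblasts, tendons and outer bone layer of the lower limb.

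Library totals ran between 8680934 and 22656417 counts, at which 3 counts correspond to 0.126 to 0.360 CPM, the count scaled to library size (TMM). Such limits cover counting error only. The TMM scaling factor was lowest in Mkx-CreER/flox 1, at 0.839, and was 0.923 to 1.09 in the other libraries. Mkx-CreER/flox 1 also had the fewest genes with a count, 18929. Mkx itself measured 26.1, 32.4 and 30.5 CPM in Mkx-CreER/flox, 91.4, 93.8 and 93.5 CPM in Mkx-CreER/+ and 187, 177, 121 and 153 CPM in Mkx flox/+, with no overlap between genotypes. It was 24.4% of the mean of both controls (log2 fold change −2.04, SE 0.176, adjusted p = 0.000149, edgeR quasi-likelihood test with Benjamini-Hochberg adjustment). The makeup of the tissue also differed. A list of 34 skeletal muscle genes held 13.8%, 9.84% and 8.63% of the counts in Mkx-CreER/flox, 3.71%, 9.07% and 7.17% in Mkx-CreER/+ and 1.93%, 2.21%, 5.44% and 5.87% in Mkx flox/+. Of these 34 genes, 7 rose and 0 fell against both controls, where 4.65% of all tested genes were called. A list of 10 tendon genes, Mkx included, held 3.31% to 4.13% of the counts in Mkx-CreER/flox, 5.40% to 7.19% in Mkx-CreER/+ and 8.34% to 13.1% in Mkx flox/+, and 5 of the 10 fell. All 10 of 10 macrophage genes fell, with 0.0607% to 0.0870% of counts in Mkx-CreER/flox, 0.110% to 0.261% in Mkx-CreER/+ and 0.158% to 0.254% in Mkx flox/+. Of 8 Schwann cell genes 1 rose, all 8 had positive log2 fold changes with a median of 2.28, and the list held 0.00334% to 0.116% of counts in Mkx-CreER/flox, 0.00383% to 0.0276% in Mkx-CreER/+ and 0.00438% to 0.0155% in Mkx flox/+. Of 8 endothelial genes 1 rose, with a median of 0.40, 1 of 4 tested epidermal genes fell, and 0 of 6 adipocyte and 0 of 7 tested cartilage and bone genes passed. In bulk tissue, fewer cells of a type and less RNA per cell cannot be told apart. The labels number the libraries as replicates without saying that each came from its own mouse, so p-values measure the spread between these libraries, which may be technical.

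The Achilles tendon had a Hox profile weighted toward the posterior groups. Together the 39 genes took 0.0182% to 0.0254% of the counts, and 31 to 35 of them had at least 1 count in a library. Levels between genes were compared per length, as TPM, computed from counts and merged exon lengths. The highest was Hoxa10, a group 10 gene of the upper limb segment, at 50.3 TPM on average over the 10 libraries, above 89.2% of the genes with a count. Hoxd8 followed at 46.6 TPM, then Hoxc10 at 36.3 and Hoxa11, the group 11 gene of the lower limb segment, at 29.5 TPM. Hoxd10 averaged 22.3, Hoxd9 20.7, Hoxa9 17.8 and Hoxc11 13.1 TPM. These 8 genes held 79.0% of the summed Hox level, and the first 3 held 44.5%. Hoxd8 apart, they belong to groups 9 to 11.

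Several neighbours in that order could not be separated. Hoxa10 was above Hoxd8 in 5 of 10 libraries, Hoxa11 above Hoxd10 in 6 of 10, and Hoxc10 above Hoxa11, Hoxd10 above Hoxd9 and Hoxd9 above Hoxa9 in 7 of 10 each. Hoxd8 was above Hoxc10, and Hoxc11 above Hoxa13, in 10 of 10. Group 13 was carried by Hoxa13, at 7.54 TPM, whereas Hoxd13 averaged 0.521, Hoxc13 0.964 and Hoxb13 0.0360 TPM. Below Hoxd8, the highest genes of groups 1 to 8 were Hoxc6 at 7.27, Hoxc5 at 6.78 and Hoxc8 at 4.89 TPM. The Hoxb cluster was low throughout, with Hoxb7 highest at 2.61 TPM. Hoxb1 was at 0 counts in all 10 libraries.

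**Figure D1:**
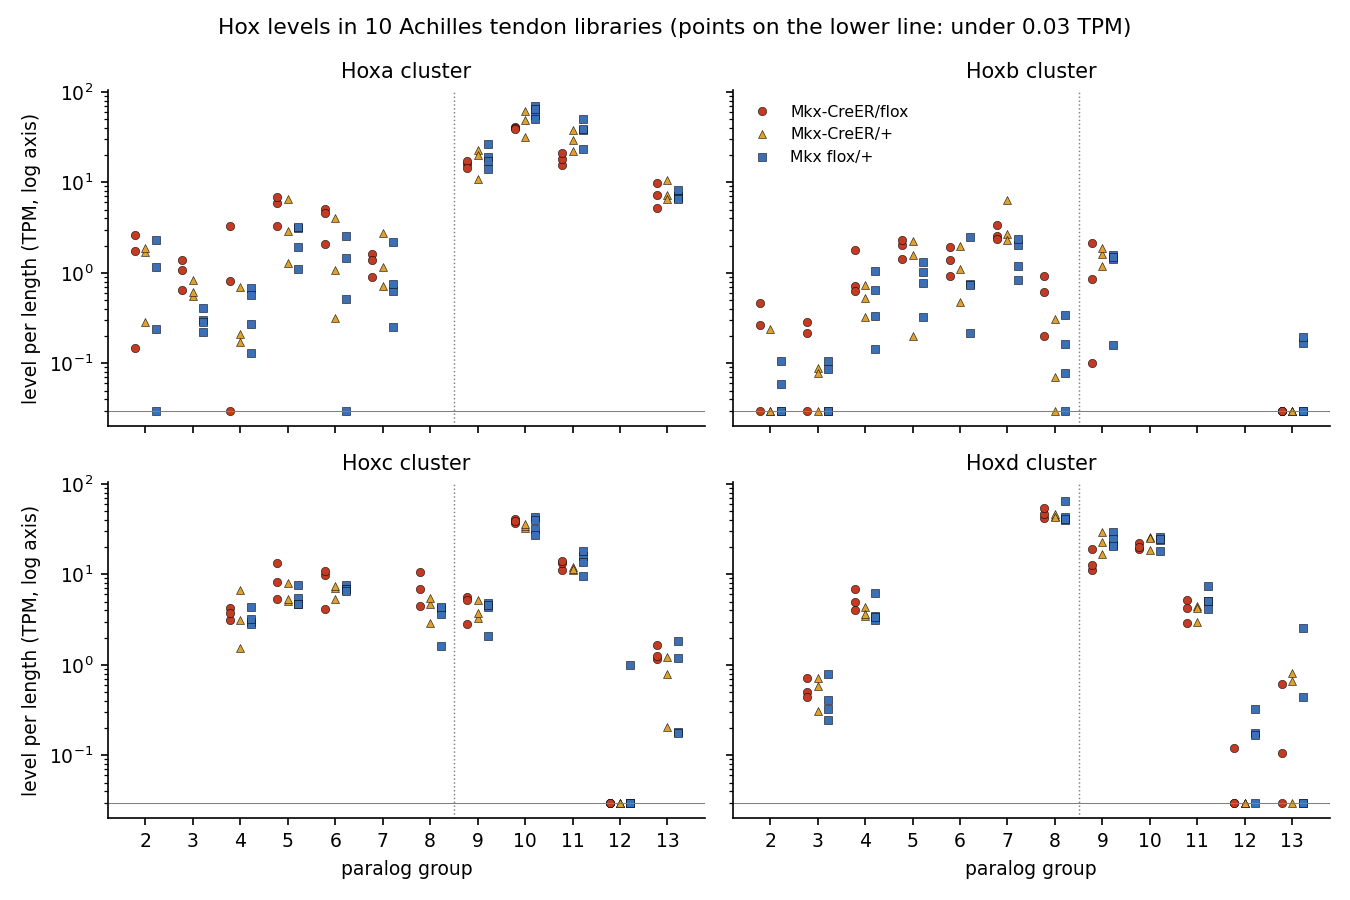
Level per length (TPM, log axis) of the Hox genes of paralog groups 2 to 13, 1 panel per cluster, with 1 point per library and the genotypes side by side. The dotted line parts groups 8 and 9, and levels peak at Hoxa10, Hoxd8 and Hoxc10 in all 3 genotypes, while Hoxb genes stay low.

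Few of the 27 tested Hox genes passed the threshold between genotypes. In a set of this size, the counts called cannot be told apart from the shares of all genes given beside them. Against both controls at equal weight, 0 of 27 tested Hox genes were called at an adjusted p under 0.05, beside 4.65% of all genes tested. At an unadjusted p under 0.05 there were 5 of the 27 (Hoxa11 and Hoxd9 with lower values, Hoxc8, Hoxa3 and Hoxc5 with higher values), and DESeq2 called 1, Hoxa11. Against Mkx flox/+ alone, 1 of 27 was called, Hoxa11, beside 7.27% of all genes and 2.9% called and lower; 7 had an unadjusted p under 0.05, and DESeq2 called 2, Hoxa11 and Hoxa3. Against Mkx-CreER/+ alone, 0 of 27 were called, beside 0.00624% of all genes, 2 had an unadjusted p under 0.05 and DESeq2 called 0. Between the controls, Mkx-CreER/+ against Mkx flox/+, 0 of 27 were called, beside 0% of all genes, and 0 had an unadjusted p under 0.05 or were called by DESeq2. These comparisons share libraries and are not independent of each other. With the muscle list score of each library as a covariate, 3 genes in all were called against both controls in place of 744. That score itself differed by genotype, at 9.36 to 10.45 in Mkx-CreER/flox and 7.55 to 9.46 in Mkx flox/+. A call lost with the covariate therefore cannot tell muscle content from genotype.

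Hoxa11 was the one Hox gene that fell, and it did so against Mkx flox/+ alone. It measured 12.4, 10.1 and 11.5 CPM in Mkx-CreER/flox, 23.6, 14.2 and 16.7 CPM in Mkx-CreER/+ and 30.9, 22.04, 24.5 and 14.7 CPM in Mkx flox/+. Each Mkx-CreER/flox library was below all 7 controls, which 3.12% of all tested genes did in that direction, while the 2 control genotypes overlapped. Against Mkx flox/+ it fell to 49.0% of the control level (log2 fold change −1.03, SE 0.264, adjusted p = 0.0308). The log2 fold change was −0.85 against both controls (SE 0.243, adjusted p = 0.0580) and −0.68 against Mkx-CreER/+ (SE 0.276, adjusted p = 0.394). Per length it averaged 18.2 ± 2.62 TPM in Mkx-CreER/flox, 29.8 ± 8.14 TPM in Mkx-CreER/+ and 37.6 ± 11.3 TPM in Mkx flox/+ (SD, n = 3, 3 and 4). The call against Mkx flox/+ did not hold with the muscle covariate (log2 fold change −0.49, adjusted p = 0.609), nor without Mkx-CreER/flox 4 (adjusted p = 0.115) or without Mkx flox/+ 1, 2 or 3 (adjusted p = 0.0896, 0.0598 and 0.0731).

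Hoxa11 lies on the minus strand of the Hoxa cluster at chr6:52242106-52245810 (GRCm38, GENCODE vM21), and a non-coding RNA on the plus strand, Hoxa11os, spans chr6:52244393-52249799 across its start. In mouse limb buds the antisense RNA is known to be transcribed where Hoxa11 is not. Here both were lower together. Hoxa11os measured 5.07, 5.60 and 5.25 CPM in Mkx-CreER/flox, 10.2, 7.94 and 7.40 CPM in Mkx-CreER/+ and 15.4, 12.6, 9.72 and 14.7 CPM in Mkx flox/+. Every Mkx-CreER/flox library was below the 7 controls, as in 3.12% of all tested genes. It fell to 50.4% of both controls (log2 fold change −0.99, SE 0.233, adjusted p = 0.0316) and to 40.7% of Mkx flox/+ (log2 fold change −1.30, SE 0.254, adjusted p = 0.0118). Against Mkx-CreER/+ the log2 fold change was −0.68 (SE 0.264, adjusted p = 0.380), and with the muscle covariate the adjusted p was 0.241 against both controls and 0.187 against Mkx flox/+. The call against both controls was also lost without Mkx-CreER/+ 1 or 2, any one Mkx-CreER/flox library, or Mkx flox/+ 1 or 2 (adjusted p 0.0512 to 0.0910). Exons of the 2 genes overlap over 800 bases, 35.0% of the Hoxa11 exon length, and no source used here states whether counting used strand, so reads of that stretch cannot be assigned to one of them. The promoter window of Hoxa11, which lies inside the span of Hoxa11os, is shown because Hoxa11 is the Hox gene that was called. It covers 250 bases before and 50 after the start, at chr6:52245761-52246060 on the minus strand (RefSeq, GRCm38.p6), reads 5′ to 3′ and holds 51% G or C.
Hoxa11 promoter: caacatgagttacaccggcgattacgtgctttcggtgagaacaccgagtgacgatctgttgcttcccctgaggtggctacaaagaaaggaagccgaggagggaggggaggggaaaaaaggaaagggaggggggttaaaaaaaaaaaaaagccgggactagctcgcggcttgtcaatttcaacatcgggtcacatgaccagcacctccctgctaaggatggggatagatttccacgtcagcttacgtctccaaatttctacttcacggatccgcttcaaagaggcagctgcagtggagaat
It holds no match to either of 2 motifs searched on both strands. One was ACANNTGT, a palindrome described for the fly Iroquois homeodomain proteins, to whose class Mkx is related. The other was TGATNNAT, a site type of Pbx and Hox partners.

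**Figure D2:**
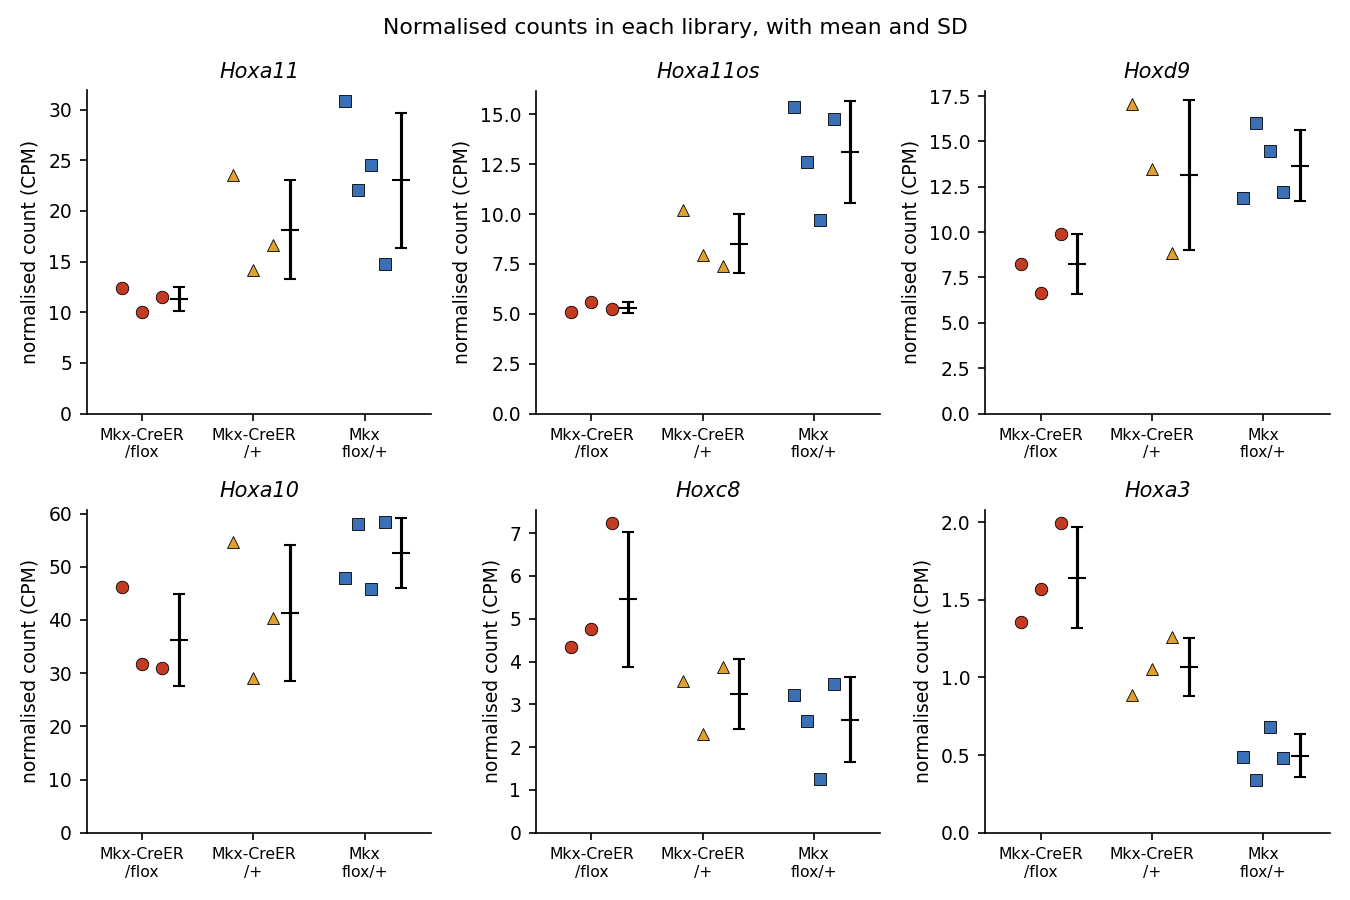
Normalised counts (CPM) in each library of Hoxa11, its antisense RNA Hoxa11os, Hoxd9, Hoxa10, Hoxc8 and Hoxa3, with the mean and SD of each genotype beside the points. Hoxa11 and Hoxa11os sit below all 7 controls in Mkx-CreER/flox, Hoxc8 and Hoxa3 above them, and Hoxa10 and Hoxd9 overlap.

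Hoxd9, a group 9 gene at chr2:74697727-74700208 on the plus strand, had the second smallest p among Hox genes against both controls. It measured 8.23, 6.63 and 9.91 CPM in Mkx-CreER/flox, 17.1, 13.5 and 8.87 CPM in Mkx-CreER/+ and 11.9, 16.0, 14.5 and 12.2 CPM in Mkx flox/+. Library 4 of Mkx-CreER/+ overlapped with Mkx-CreER/flox, and the other 6 controls were above it. The log2 fold change was −0.70 against both controls (SE 0.244, adjusted p = 0.114), −0.73 against Mkx flox/+ (adjusted p = 0.112) and −0.67 against Mkx-CreER/+ (adjusted p = 0.410), so no comparison passed. Without Mkx-CreER/+ 4 the first of these was −0.83 with an adjusted p of 0.0436. Its promoter window is printed beside that of Hoxa11 as the other posterior gene with low counts in Mkx-CreER/flox, at chr2:74697513-74697812 on the plus strand (RefSeq, GRCm38.p6), with 68.3% G or C and neither motif.
Hoxd9 promoter: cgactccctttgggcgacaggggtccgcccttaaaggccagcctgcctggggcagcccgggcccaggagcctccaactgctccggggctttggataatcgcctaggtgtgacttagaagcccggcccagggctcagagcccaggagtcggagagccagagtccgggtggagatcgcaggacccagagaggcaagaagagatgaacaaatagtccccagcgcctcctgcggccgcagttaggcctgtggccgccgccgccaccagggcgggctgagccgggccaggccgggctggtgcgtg

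Hoxc8 and Hoxa3 moved the other way, without passing the threshold. Hoxc8, a group 8 gene of the trunk, measured 4.34, 4.76 and 7.25 CPM in Mkx-CreER/flox, 3.55, 2.31 and 3.87 CPM in Mkx-CreER/+ and 3.21, 2.61, 1.25 and 3.48 CPM in Mkx flox/+. The log2 fold change was 0.91 against both controls (SE 0.341, adjusted p = 0.146). Hoxa3, a group 3 gene of the neck and throat region, measured 1.36, 1.57 and 1.996 CPM in Mkx-CreER/flox, 0.888, 1.05 and 1.26 CPM in Mkx-CreER/+ and 0.487, 0.341, 0.682 and 0.479 CPM in Mkx flox/+. Its log2 fold change was 1.14 against both controls (SE 0.442, adjusted p = 0.158) and 1.67 against Mkx flox/+ (SE 0.524, adjusted p = 0.0686). It rests on 3 to 32 counts per library, and 20.6% of its exon length overlaps genes of the other strand. In CPM, every Mkx-CreER/flox library of both genes was above all 7 controls, as in 3.81% of all tested genes. In Hoxa3 the 2 control genotypes did not overlap each other either. Per length, where the TMM factor does not enter, both genes overlapped with the controls. In Mkx-CreER/flox 1, Hoxc8 was 4.42 TPM and Hoxa3 0.651 TPM, beside 5.46 and 0.839 TPM in Mkx-CreER/+ 4. Hoxa3 lies at chr6:52169062-52213336 on the minus strand. Of the 22 Hox genes with a promoter in the RefSeq table, it was the only one with the Iroquois-type letters, 4.55% of them against 7.36% of 27025 promoters. Only the first listed window of each gene was searched. The Pbx-Hox letters were in 3 of the 22 (Hoxa2, Hoxb1 and Hoxb8), 13.6% against 9.04%. The window at chr6:52213018-52213317 on the minus strand is shown with that match in capitals, and holds 64% G or C.
Hoxa3 promoter: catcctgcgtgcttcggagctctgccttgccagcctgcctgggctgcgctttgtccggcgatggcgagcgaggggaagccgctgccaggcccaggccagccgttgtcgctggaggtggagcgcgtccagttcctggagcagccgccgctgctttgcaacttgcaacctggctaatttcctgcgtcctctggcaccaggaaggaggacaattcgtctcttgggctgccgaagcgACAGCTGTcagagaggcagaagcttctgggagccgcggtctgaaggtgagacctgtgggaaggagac

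The Hox clusters also hold microRNA genes that are known to act on Hox messages. Mir196a-1, Mir196a-2 and Mir196b lie in the Hoxb, Hoxc and Hoxa clusters and share 1 seed; Mir10a and Mir10b lie in the Hoxb and Hoxd clusters and share another. Their mature 5p strands are shown (RefSeq, GRCm38.p6) with the seed, bases 2 to 8, in capitals. Below them are seed matches in 3′ untranslated regions (GENCODE vM21 transcripts, the matching bases in capitals). They belong to the pair of Hox genes whose Mkx-CreER/flox libraries were above all controls in CPM. Levels of the microRNAs were not analysed here.
miR-196a-5p: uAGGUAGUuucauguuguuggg
miR-196b-5p: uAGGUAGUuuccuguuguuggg
Hoxc8, first match: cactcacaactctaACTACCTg
Hoxc8, second match: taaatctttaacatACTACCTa
miR-10a-5p: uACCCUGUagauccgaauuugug
miR-10b-5p: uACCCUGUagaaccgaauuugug
Hoxa3, match: actctttgataagaaACAGGGTa
The miR-196 seed match was in 9 of 39 Hox genes, 23.1% against 6.81% of 21103 genes with a 3′ untranslated region; tested ones were Hoxa5, Hoxa7, Hoxa9, Hoxb6, Hoxb7 and Hoxc8. The miR-10 match was in 4 of 39, Hoxa3 among them, 10.3% against 12.9% of genes. Median region lengths were 966 bases in Hox genes and 1086 bases in all genes. A match describes letters and shows no binding.

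By paralog group, the fitted differences of the tested genes took different sides. Against both controls, all 15 tested genes of groups 1 to 8 had a positive log2 fold change, with a median of 0.40. The highest was 1.31 (Hoxa6, SE 0.764), on 0 to 22 counts per library. Of the 12 tested genes of groups 9 to 13, 4 were positive (Hoxc9, Hoxc10, Hoxc11 and Hoxc13), with a median of −0.15. Over all 16017 genes tested, 51.5% were positive and the median was 0.016. Of the 27, 5 had an unadjusted p under 0.05, and the differences of the rest lay within 2 SE of 0. Against Mkx-CreER/+ alone 13 of 15 and 5 of 12 were positive, and against Mkx flox/+ alone 15 of 15 and 4 of 12. When only Mkx-CreER/flox and Mkx flox/+ libraries were filtered and fitted, 12 genes of groups 1 to 8 were tested, and 12 were positive. The controls differed in the same sense, with 12 of 15 and 4 of 12 positive for Mkx-CreER/+ against Mkx flox/+. With the muscle covariate the counts against both controls were 14 of 15 and 5 of 12. All 8 tested Hoxc genes were positive against both controls, among them Hoxc5 at 0.59 (SE 0.270, adjusted p = 0.229), and against Mkx flox/+ 7 of the 8. Hoxc11, at 0.03, changed sign under several settings.

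**Figure D3:**
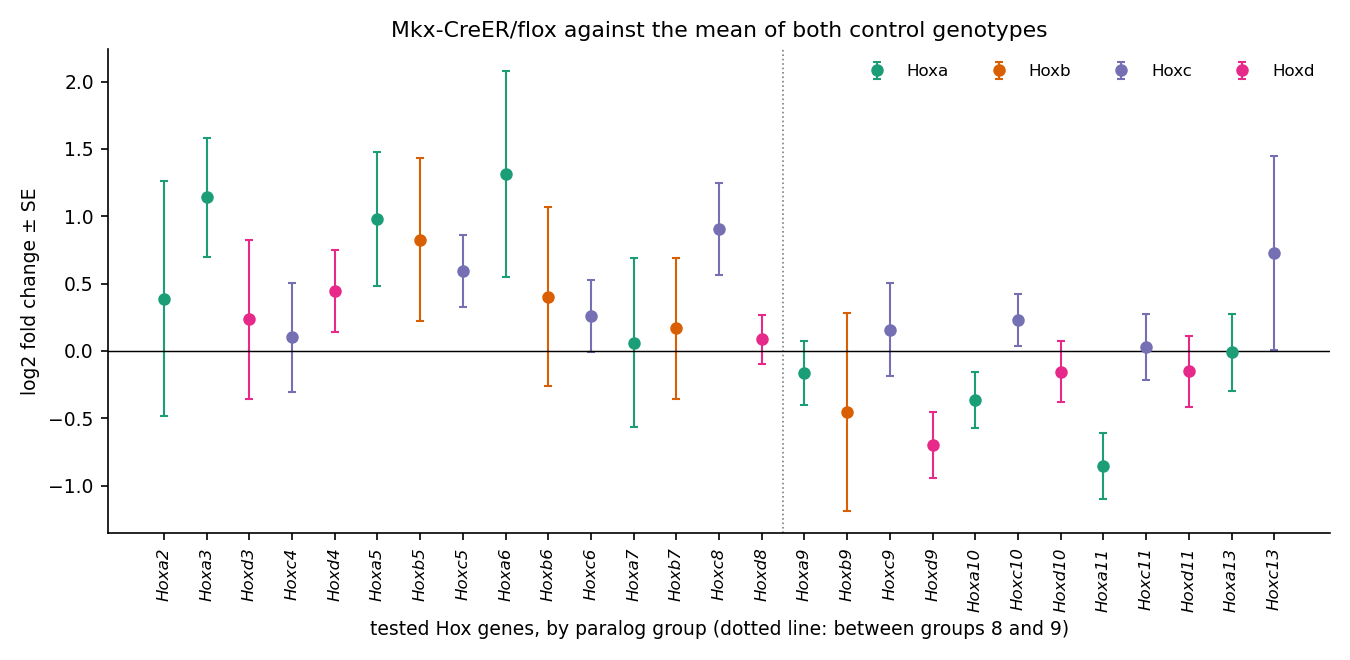
Log2 fold change with SE of the 27 tested Hox genes, Mkx-CreER/flox against both controls at equal weight, ordered by paralog group and coloured by cluster. The 15 genes left of the dotted line (groups 1 to 8) lie above 0, and 8 of the 12 right of it lie below.

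None of the other high members was called in any comparison. Hoxa10 measured 46.1, 31.7 and 30.9 CPM in Mkx-CreER/flox, 54.7, 29.2 and 40.3 CPM in Mkx-CreER/+ and 48.0, 58.0, 45.8 and 58.4 CPM in Mkx flox/+, with a log2 fold change of −0.36 against both controls (SE 0.206, adjusted p = 0.342). Against Mkx flox/+ it was −0.54 (SE 0.226, unadjusted p = 0.0322, adjusted p = 0.171). The genotypes overlapped, and Mkx-CreER/flox 1 was the highest of its genotype. Hoxd8 measured 40.1, 31.0 and 36.2 CPM in Mkx-CreER/flox, 32.6, 35.7 and 29.4 CPM in Mkx-CreER/+ and 47.4, 29.99, 30.4 and 31.4 CPM in Mkx flox/+ (log2 fold change 0.09, SE 0.181, adjusted p = 0.844). Library 1 of Mkx flox/+ was high and the rest overlapped. Hoxc10, a gene of the hindlimb-weighted posterior Hoxc set, measured 27.3, 17.3 and 18.1 CPM in Mkx-CreER/flox, 16.9, 18.4 and 17.2 CPM in Mkx-CreER/+ and 21.8, 19.1, 16.9 and 14.5 CPM in Mkx flox/+ (log2 fold change 0.23, SE 0.196, adjusted p = 0.559).

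Hoxd10, the Hoxd gene of group 10, measured 11.9, 9.72 and 8.87 CPM in Mkx-CreER/flox, 12.7, 12.98 and 8.33 CPM in Mkx-CreER/+ and 8.66, 11.02, 13.01 and 12.5 CPM in Mkx flox/+ (log2 fold change −0.15, SE 0.226, adjusted p = 0.762). All 3 genotypes overlapped. Hoxa9 measured 30.9, 23.3 and 19.3 CPM in Mkx-CreER/flox, 34.3, 17.1 and 28.0 CPM in Mkx-CreER/+ and 28.0, 37.1, 21.9 and 26.9 CPM in Mkx flox/+ (log2 fold change −0.16, SE 0.236, adjusted p = 0.757). Hoxc11 measured 7.78, 6.63 and 6.88 CPM in Mkx-CreER/flox, 6.51, 6.41 and 5.76 CPM in Mkx-CreER/+ and 8.57, 6.93, 5.34 and 10.3 CPM in Mkx flox/+ (log2 fold change 0.03, SE 0.246, adjusted p = 0.967). Hoxa9 overlapped between all genotypes. In Hoxc11 the Mkx-CreER/flox libraries lay just above those of Mkx-CreER/+ and within the range of Mkx flox/+. Hoxa13, the group 13 gene of the foot, had a log2 fold change of −0.01 (SE 0.285), and 2 SE around it ran between −0.58 and 0.56.

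The summed Hox level did not separate the genotypes, at 285 ± 34.9 TPM in Mkx-CreER/flox, 293 ± 38.6 TPM in Mkx-CreER/+ and 315 ± 31.7 TPM in Mkx flox/+ (SD, n = 3, 3 and 4). Its division over paralog groups did so in part. Groups 9 to 13 held 67.9%, 62.3% and 60.1% of the level in Mkx-CreER/flox, 73.7%, 69.4% and 68.0% in Mkx-CreER/+ and 71.5%, 75.2%, 74.9% and 74.8% in Mkx flox/+. The Mkx-CreER/flox mean of 63.4% differed from the mean of the control means by −8.81 percentage points, beside an SD within genotypes of 2.92 points. The highest Mkx-CreER/flox library, number 1 at 67.9%, lay just under the lowest control at 68.0%. This separation depended on the length used. With the longest transcript as the length, Mkx-CreER/flox reached 68.56% and Mkx-CreER/+ began at 68.31%. Without division by length these values were 68.62% and 68.38%, so the genotypes overlapped in both settings. No test is given for this score. In level, groups 9 to 13 summed to 180 ± 11.2 TPM in Mkx-CreER/flox, 207 ± 33.8 TPM in Mkx-CreER/+ and 233 ± 22.5 TPM in Mkx flox/+, and groups 1 to 8 to 105 ± 23.8, 86.2 ± 9.27 and 81.8 ± 11.4 TPM in the same order of genotypes. Counting only groups 10 to 13, the difference was −5.80 points. Mkx-CreER/flox (47.2% to 55.9%) then overlapped with Mkx-CreER/+ (53.6% to 56.2%), while Mkx flox/+ (57.3% to 60.0%) lay above both.

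The Hoxc cluster held 29.5%, 30.5% and 30.9% of the Hox level in Mkx-CreER/flox, 21.0%, 26.0% and 27.0% in Mkx-CreER/+ and 24.5%, 23.1%, 22.4% and 24.1% in Mkx flox/+. Mkx-CreER/flox lay above all 7 controls, while the control genotypes overlapped. The Hoxa cluster held 31.5% to 36.1% in Mkx-CreER/flox, 31.0% to 41.9% in Mkx-CreER/+ and 40.2% to 42.8% in Mkx flox/+. The Hoxd share was 32.0% to 33.7% in Mkx-CreER/flox, 29.2% to 40.5% in Mkx-CreER/+ and 31.8% to 35.1% in Mkx flox/+. The Hoxb share was 2.36% to 3.90% in Mkx-CreER/flox, 2.34% to 3.92% in Mkx-CreER/+ and 1.40% to 2.28% in Mkx flox/+. The mean share of muscle transcripts was also highest in Mkx-CreER/flox, although Mkx-CreER/+ 2, at 9.07%, was above Mkx-CreER/flox 5, at 8.63%. Within Mkx-CreER/flox, library 1 had the most muscle counts, 13.8%, and the highest share of groups 9 to 13. The part of tissue makeup in these shares was not tested.

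**Figure D4:**
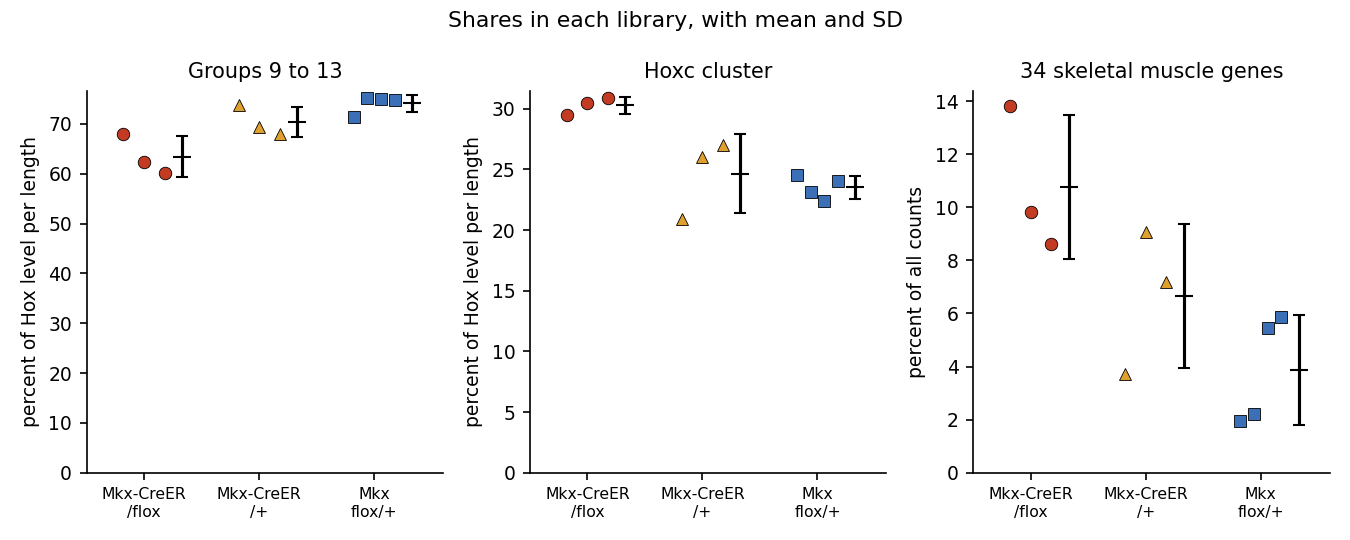
Percent of the summed Hox level per length held by groups 9 to 13 and by the Hoxc cluster, and percent of all counts held by 34 skeletal muscle genes, in each library with mean and SD. The Mkx-CreER/flox libraries are the lowest 3 in the share of groups 9 to 13 and the highest 3 in the Hoxc share.

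The 12 Hox genes that were not tested averaged at most 0.687 TPM (Hoxb4) and had at most 31 counts in a library. The 8 of groups 1 to 8, most of them in the Hoxb cluster, summed to 14, 37 and 52 counts in Mkx-CreER/flox, 7, 24 and 18 counts in Mkx-CreER/+ and 6, 13, 11 and 6 counts in Mkx flox/+. In 7 of these 8 the mean level was highest in Mkx-CreER/flox, and Hoxb1 was at 0. Scaled for depth the sums were 1.27, 1.82 and 3.84 CPM in Mkx-CreER/flox, 0.518, 1.26 and 0.757 CPM in Mkx-CreER/+ and 0.584, 1.48, 0.625 and 0.719 CPM in Mkx flox/+, which overlap. The 4 of groups 9 to 13 (Hoxb13, Hoxc12, Hoxd12 and Hoxd13) summed to 1, 0 and 6 counts in Mkx-CreER/flox, 6, 0 and 12 counts in Mkx-CreER/+ and 4, 1, 40 and 2 counts in Mkx flox/+. Library 3 of Mkx flox/+ stood alone there, and at these depths a difference was not detectable.

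Hindlimb identity is set in the embryo by Pitx1, a homeobox gene of the hindlimb, its target Tbx4, and Isl1, which starts the hindlimb bud, while Tbx5 is the forelimb counterpart of Tbx4. In the adult tendon Tbx4 averaged 28.0, Isl1 24.1 and Pitx1 9.67 TPM over the 10 libraries, beside 0.521 TPM for Tbx5. The other members of the hindlimb list, Irx3 and Irx5, were low, at 1.33 and 0.425 TPM, and Irx5 was not tested. None of the 4 tested hindlimb regulators was called in any of the 4 comparisons, in which 0% to 7.27% of all tested genes were called. Pitx1 measured 1.27, 4.07 and 8.72 CPM in Mkx-CreER/flox, 6.66, 6.15 and 6.31 CPM in Mkx-CreER/+ and 9.34, 6.25, 8.87 and 10.2 CPM in Mkx flox/+. The 3 Mkx-CreER/flox libraries spread more widely than all 7 controls, and library 1 was the lowest. Its log2 fold change against both controls was −0.66 (SE 0.406, adjusted p = 0.391); it was −0.25 without Mkx-CreER/flox 1 and −1.44 without Mkx-CreER/flox 5 (adjusted p = 0.779 and 0.0448).

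Isl1 measured 19.5, 15.3 and 20.1 CPM in Mkx-CreER/flox, 35.1, 23.1 and 21.2 CPM in Mkx-CreER/+ and 26.6, 33.3, 33.2 and 28.2 CPM in Mkx flox/+. All Mkx-CreER/flox libraries were below the 7 controls in CPM, as in 3.12% of all tested genes. Per length they were not, with 21.0 TPM in Mkx-CreER/flox 5 beside 20.8 TPM in Mkx-CreER/+ 2. The log2 fold change of Isl1 was −0.63 against both controls (SE 0.198, adjusted p = 0.0825) and −0.73 against Mkx flox/+ (SE 0.216, adjusted p = 0.0549). Against both controls its adjusted p was 0.0418 by DESeq2 and 0.0473 without Mkx-CreER/+ 4. Tbx4 measured 22.7, 23.7 and 28.7 CPM in Mkx-CreER/flox, 21.2, 14.3 and 19.4 CPM in Mkx-CreER/+ and 34.8, 35.9, 21.7 and 31.05 CPM in Mkx flox/+. Its log2 fold change was 0.08 (SE 0.197, adjusted p = 0.877) against both controls, whose means lay on either side. Mkx flox/+ 3 nevertheless lay below all Mkx-CreER/flox libraries. Between the controls, Mkx-CreER/+ against Mkx flox/+, the log2 fold change of Tbx4 was −0.75 (SE 0.222, adjusted p = 0.690). Tbx5 measured 1.09, 0.540 and 0.739 CPM in Mkx-CreER/flox, 0.814, 0.368 and 0.925 CPM in Mkx-CreER/+ and 0.487, 0.568, 0.227 and 0.839 CPM in Mkx flox/+ (log2 fold change 0.37, SE 0.590, adjusted p = 0.785), on 4 to 22 counts per library.

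**Figure D5:**
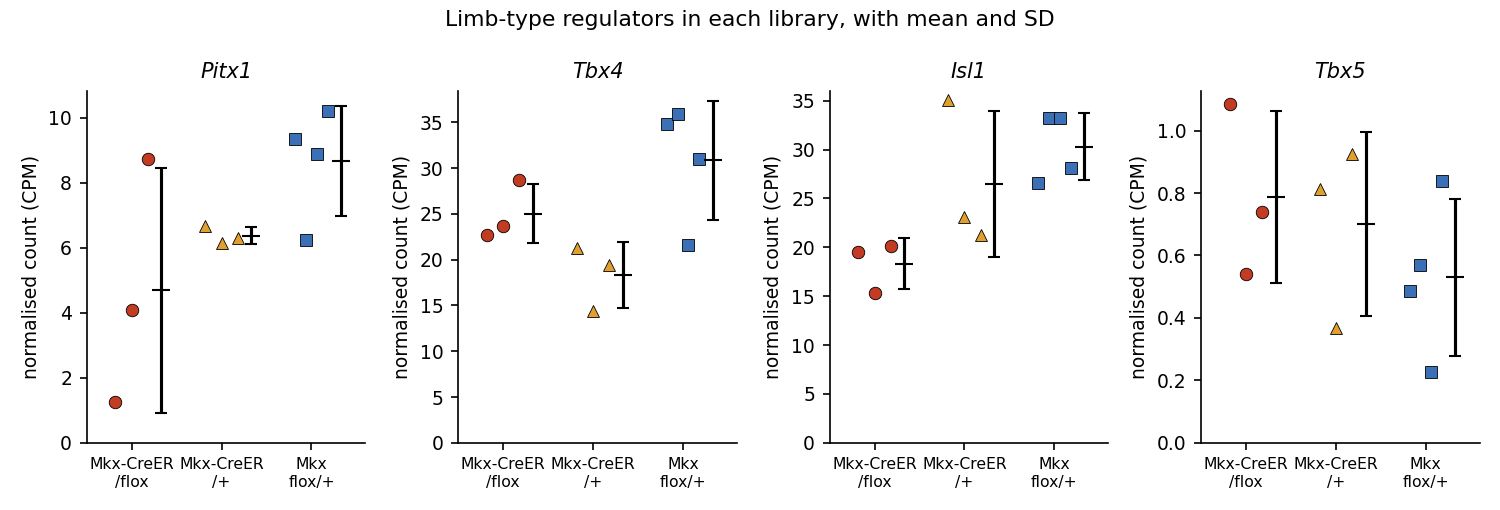
Normalised counts (CPM) of Pitx1, Tbx4 and Isl1, regulators of hindlimb identity, and Tbx5, the forelimb counterpart of Tbx4, in each library with mean and SD. Isl1 lies below all 7 controls in Mkx-CreER/flox, Pitx1 spreads widely there, and Tbx5 stays near or under 1 CPM in all libraries.

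Hox proteins bind DNA with partners of the TALE class, Pbx, Meis and Pknox proteins, to which Mkx is itself related. Of 8 tested cofactor genes, 0 were called in any comparison, beside 0% to 7.27% of all tested genes. Their median log2 fold change was 0.13 against both controls, beside 0.016 over all genes. The smallest p was that of Pknox2, at 42.2, 42.7 and 51.4 CPM in Mkx-CreER/flox, 26.7, 36.2 and 45.6 CPM in Mkx-CreER/+ and 20.3, 25.1, 26.9 and 35.7 CPM in Mkx flox/+ (log2 fold change 0.54, SE 0.198, adjusted p = 0.134). Meis2 followed at 0.23 (SE 0.227, adjusted p = 0.629). Pknox2 was above all Mkx flox/+ libraries and overlapped with Mkx-CreER/+.

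The 14 tested other limb patterning factors had a median log2 fold change of 0.15 against both controls. Of these, 1 rose and 0 fell, beside 4.65% of all genes called. It was En1, which sets the ventral side of the limb, at 5.70, 3.83 and 1.63 CPM in Mkx-CreER/flox, 0.814, 1.997 and 1.77 CPM in Mkx-CreER/+ and 0.973, 0.909, 0.852 and 1.20 CPM in Mkx flox/+. Library 5 of Mkx-CreER/flox overlapped with Mkx-CreER/+. The log2 fold change was 1.59 against both controls (SE 0.423, adjusted p = 0.0457) and 1.92 against Mkx flox/+ (SE 0.502, adjusted p = 0.0336). The call against both controls stood in 5 of 17 alternative settings, and that against Mkx flox/+ in 10 of 17; the muscle covariate ended both (adjusted p = 0.467 and 0.529), as did leaving out Mkx-CreER/flox 1 (0.251 and 0.148), Mkx-CreER/flox 4 (0.136 and 0.0935) or any one Mkx flox/+ library. Leaving out any one Mkx-CreER/+ library also ended the call against both controls. Against Mkx flox/+ 2 of the 14 also fell, beside 2.9% of all genes called and lower. Hand2, a gene of the posterior limb bud, measured 1.63, 2.602 and 3.77 CPM in Mkx-CreER/flox, 6.44, 3.63 and 2.27 CPM in Mkx-CreER/+ and 7.495, 8.97, 11.8 and 6.47 CPM in Mkx flox/+ (log2 fold change −1.70, SE 0.408, adjusted p = 0.0240, called in 12 of 17 settings). That call was lost with the muscle covariate (adjusted p = 0.331) and without Mkx-CreER/flox 1 or 4 or Mkx flox/+ 2 or 3 (adjusted p 0.0540 to 0.0770). Hand2 overlapped with Mkx-CreER/+ and lay below all Mkx flox/+ libraries. Twist1, of the limb mesenchyme, measured 26.0, 23.5 and 26.0 CPM in Mkx-CreER/flox, 34.3, 27.9 and 28.6 CPM in Mkx-CreER/+ and 36.9, 33.96, 42.1 and 38.5 CPM in Mkx flox/+ (log2 fold change −0.59 against Mkx flox/+, SE 0.171, adjusted p = 0.0491, called in 3 of 17, and lost on leaving out any one library). Its Mkx-CreER/flox libraries were below all 7 controls, as in 3.12% of all tested genes. Neither gene passed against both controls (adjusted p = 0.0934 for Hand2 and 0.129 for Twist1).

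Polycomb complexes keep Hox genes silent outside their domain and Trithorax proteins keep them active. Of 22 tested genes of these groups, 0 were called against both controls, beside 4.65% of all genes, with a median log2 fold change of −0.008. Against Mkx flox/+, 1 of the 22 rose, beside 7.27% of all genes called. It was Bmi1, a subunit of Polycomb repressive complex 1, at 69.3, 34.1 and 31.1 CPM in Mkx-CreER/flox, 23.2, 16.9 and 31.2 CPM in Mkx-CreER/+ and 29.1, 15.6, 21.9 and 14.3 CPM in Mkx flox/+. Library 1 of Mkx-CreER/flox was the highest by far, and library 5 touched Mkx-CreER/+ 4. Its log2 fold change was 1.14 against Mkx flox/+ (SE 0.319, adjusted p = 0.0444) and 1.03 against both controls (SE 0.279, adjusted p = 0.0510), and without Mkx-CreER/flox 1 the first was 0.67 (adjusted p = 0.213); the call against Mkx flox/+ stood in 9 of 17 settings. Phc1, of the same complex, had a log2 fold change of −0.42 against both controls (SE 0.153, adjusted p = 0.131). Ezh2, the methyltransferase of repressive complex 2, stood at 0.26 (SE 0.221, adjusted p = 0.565).

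Of 20 non-member genes of the table that lie in the clusters or within 50 kb of them, 4 were tested and 4 were at 0 in all libraries. Besides Hoxa11os, these were Hotair, Hoxd3os1 and Hottip. Hotair, a non-coding RNA between Hoxc11 and Hoxc12, measured 4.16, 1.91 and 3.11 CPM in Mkx-CreER/flox, 3.48, 3.26 and 4.12 CPM in Mkx-CreER/+ and 3.80, 2.16, 1.76 and 1.92 CPM in Mkx flox/+ (log2 fold change 0.04, SE 0.357, adjusted p = 0.969). Hoxd3os1 had a log2 fold change of 0.24 (SE 0.263, adjusted p = 0.672). Hottip, at the posterior end of the Hoxa cluster, had 0 to 16 counts and a log2 fold change of 0.22 (SE 0.938, adjusted p = 0.928). All 3 overlapped between genotypes.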

How the data were processed

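For 10 Achilles tendon libraries the authors deposited raw counts, 1 row per Ensembl gene ID. Per the submitters' processing notes, the tools were fastp and STAR with the build mm10; their versions, the counting tool, its strand setting and the annotation release are stated in no source used here. Symbols, positions and merged exon lengths came from GENCODE vM21 (GRCm38), which held 32235 of 32285 gene IDs and left 50 out. Columns of Mkx flox/+ carry the labels' numbers, while the numbers in those of Mkx-CreER/flox and Mkx-CreER/+ differ from the labels' numbers, so these were matched by genotype only. Within genotypes, chi-square per degree of freedom between library pairs was 23.6 to 120, so no pair differed by counting error alone. That measure cannot tell separate libraries of the same RNA or mouse from libraries of different mice.

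Tests on these counts used edgeR 4.0.16 under R 4.3.3 (filterByExpr, TMM, robust quasi-likelihood fit of all 10 libraries with a term per genotype). Benjamini-Hochberg adjustment ran over all 16017 genes tested, and genes at an adjusted p under 0.05 were called. TPM was computed from counts and merged exon lengths. The muscle score is the mean log2 CPM (prior count 2) of the muscle list. The test was checked on simulated data. DESeq2 1.42.0, other scalings and filters, the muscle covariate, and each library left out were alternatives; a share over genes without exon overlap was added after seeing the data. Marker lists were skeletal muscle, tendon, macrophage, endothelial, Schwann cell, adipocyte, epidermis, and cartilage and bone. Named in every library were the 8 highest Hox genes, those called, and the 3 of smallest p against both controls. The same was done for those without overlap with the 7 controls in CPM. Other Hox genes singled out for low p or position were chosen after their values were seen. The members and lists were chosen with earlier results of these data known. Promoter and microRNA sequences are from RefSeq (GRCm38.p6), with promoters for 22 of the 39 Hox genes and only the first listed window of each gene used. Values of a few genes are not reported here.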

Additional observations from a re-analysis of the deposited data

Results flagged for a closer look

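In 4 of 40 values checked in the 4 Mkx flox/+ libraries, one library stood apart from the other 3 by more than Dixon's limit, which chance alone gives in about 1 in 20 groups. Hoxd8 was high in Mkx flox/+ 1, at 47.4 CPM. Hoxc9 was low, at 1.36 CPM, and Hoxb9 was low, at 0.114 CPM, each in 1 library. The share of groups 9 to 13 in the summed Hox level was low in Mkx flox/+ 1, at 71.5%.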

How the results depend on the processing

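No paired analysis was possible because the labels name no pairs of libraries across genotypes. Against both controls the count of Hox genes called, 0, became 1 with DESeq2, upper-quartile scaling and no filter (Hoxa11 each time), and lay between 0 and 1 with single libraries left out (Hoxd9 without Mkx-CreER/+ 4, Hoxa11 without Mkx flox/+ 4). Against Mkx flox/+ the count of 1 became 2 with DESeq2 and 0 with the muscle covariate, and lay between 0 and 1 with single libraries left out. Counts of 0 against Mkx-CreER/+ and between the controls kept that value in all settings run. Counts over all genes against both controls were 744 and 1447 with DESeq2, 3 with the muscle covariate and 64 to 1114 with a library left out. Against Mkx flox/+ they were 1165 and 1830 with DESeq2, 26 with the muscle covariate and 455 to 1585 with a library left out; DESeq2 called 123 genes against Mkx-CreER/+, in place of 1, and 34 between the controls, in place of 0. The share difference of −8.81 points was −5.80 with groups 10 to 13, −8.58 to −8.85 in the other settings and −11.0 to −7.12 with a library left out. Signs of log2 fold changes against both controls turned for Hoxa9 with the muscle covariate (0.0607), for Hoxc11 with upper-quartile scaling (−0.0233) and the muscle covariate (−0.10), and for Tbx4 with the 7 controls as 1 group (−0.0180). With single libraries left out they also turned for Hoxd8 (−0.0247 to 0.178, lowest without Mkx-CreER/flox 1), Hoxc10 (−0.0270 to 0.350, lowest without Mkx-CreER/flox 1), Hoxc11 (−0.0607 to 0.0979, below 0 on leaving out Mkx-CreER/+ 4, Mkx flox/+ 3 or Mkx-CreER/flox 1) and Tbx4 (−0.0454 to 0.121, below 0 without Mkx-CreER/+ 2 or Mkx-CreER/flox 5). The cause of these changes was not tested. Other scalings moved the median of all genes by at most −0.06 (log2). Differences among the 12 untested ones were not detectable at this depth.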
